A study of Homo sapiens with 24 samples.

Results

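The late response of D425 cells to a short hairpin RNA against OTX2 was examined over the interval from 48 to 96 h after the hairpin was switched on. D425 is an established human medulloblastoma cell line, and medulloblastoma is a malignant tumour of the cerebellum. The arrays were taken by their labels: the 3 arrays labelled shOTX2 at 96 h were set against the 3 labelled shOTX2 at 48 h and paired by time course, which is 6 of the 24 arrays of the series. Both groups are D425 cells with a doxycycline-inducible hairpin against OTX2, harvested 96 h or 48 h after doxycycline in 3 independent time courses. The control is a single course of D425 cells labelled control, with 1 array at 96 h and 1 at 48 h, and it serves as the background of time in culture. Cells of both arms were plated 24 h before doxycycline and grown in medium with fetal calf serum. What the control cells carry, and whether the hairpin line is a single clone, is not given in the sources used here.

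OTX2 is a homeobox factor needed by the developing forebrain, midbrain and retina. It is often abundant in medulloblastoma, and together with its relative CRX it activates photoreceptor genes. Neural precursors that leave the cell cycle shut down the genes of DNA replication and mitosis and switch on microtubule proteins, adhesion molecules, ion channels and synaptic proteins, usually in that order from the growing axon to the synapse. The mitotic genes share promoter elements, among them the CCAAT box, which NF-Y binds, and the CHR element with the letters TTTGAA, through which the DREAM complex silences them in resting cells.

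RNA was read on Affymetrix U133 Plus 2.0 arrays, 1 array a sample, and each value is a MAS5 signal in arbitrary units scaled by the authors to the same level on every array. Array medians ran from 16.3 to 20.6, and precision is limited by how many arrays there are. A log2 change here is a change of log2(signal + 16), which understates the change of dim genes, and SE is its standard error. A gene was called when its limma adjusted p (Benjamini-Hochberg over all 13903 genes tested, with the time course as a block) was under 0.05, and only called genes are said to rise or fall. OTX2 itself read 3841.5, 4398.3 and 4324.3 at 96 h in courses 1, 2 and 3, against 4082.9, 4374.3 and 4204.7 at 48 h, with a mean of 4658.8 at 0 h. Its log2 change was -0.01 (SE 0.06) and was not called, and on its second probe set it was 0.13. The control course read 5357 at 96 h and 4901.8 at 48 h. The positions of hairpin and probes along the OTX2 transcript are not given, so these signals do not check the labels.

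Between 48 and 96 h the hairpin cells gained neuronal transcripts and lost mitotic ones. Of 13903 genes, 3373 were called (24.3%), of which 1495 rose (10.8%) and 1878 fell (13.5%). The change was at least 2-fold for 304 of them, with 198 higher and 106 lower, so large rises outnumbered large falls although falls were the more frequent. In the 48 h before, from 0 to 48 h, 6197 genes were called (44.6%), and 1369 of them changed at least 2-fold. On the first principal component, which held 49.8% of the variance, the arrays at 96 h lay at 71.6, 71.9 and 64.8 and those at 48 h at 38.3, 42.7 and 49.8. The control arrays lay at -12.7 at 96 h and -24 at 48 h. The number of calls at 96 h against 48 h was 1755 without course 1, 1622 without course 2, 2943 without course 3 and 1643 without the course block.

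The change that these cells underwent differed from that of the control course for 1254 genes (9.02%), with 451 moving further up (3.24%) and 803 further down (5.78%). The control has 1 array a time, which is assumed to vary like the hairpin arrays, and its 96 h and 48 h arrays correlated least of the 15 control pairs (r = 0.971 across genes, against 0.977 to 0.988 for the others). With the control's 24 h array in place of its 48 h array, a setting chosen after the data were seen, 227 genes moved further up and 413 further down. Centring each array on its median gave 240 and 1043, so the balance of the 2 directions depends on the scaling.

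**Figure D1:**
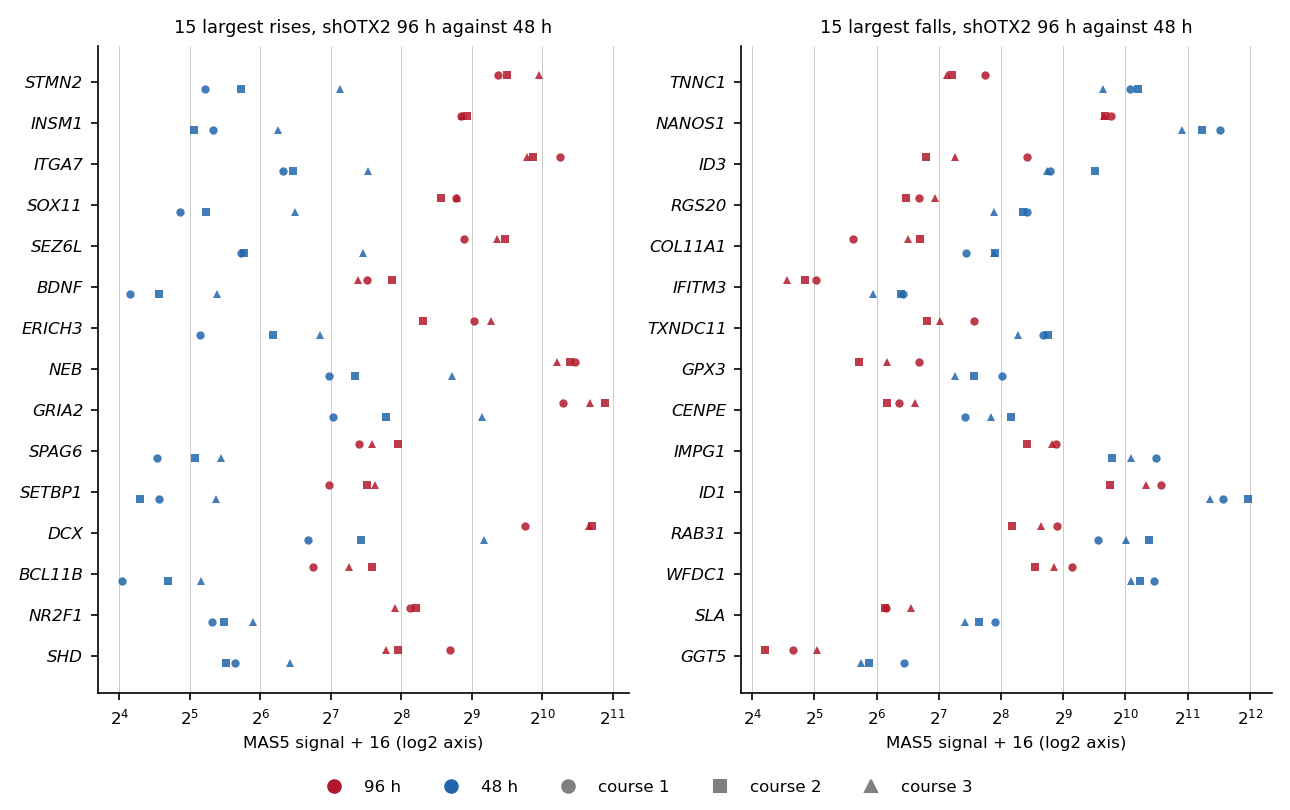
MAS5 signal plus 16 (log2 axis) of the 15 largest rises (left) and the 15 largest falls (right) on each shOTX2 array, with 96 h in red above 48 h in blue and the symbol giving the course. The 96 h and 48 h arrays do not overlap for any of these 30 genes, which were chosen by their change (14% of all genes did not overlap and were higher, 15.8% lower), and course 3 has the highest 48 h signal for all 15 rises.

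The largest rise was that of STMN2, a stathmin-family protein that regulates microtubules in growing axons. STMN2 read 644.6, 708.6 and 978.9 at 96 h in courses 1, 2 and 3, against 21, 37 and 123.4 at 48 h, while the control course read 25.8 at 96 h and 27.8 at 48 h. The 3 arrays at 96 h lay far above those at 48 h, while the control read much the same at both times. The log2 change was 3.59 (SE 0.24, adjusted p = 2.2e-08), and it exceeded that of the control by 3.66 (adjusted p = 0.00019). Most of the gain in STMN2 fell in this interval, since its mean signal over the courses was 9, 13.5, 60.5 and 777 at 0, 24, 48 and 96 h. INSM1, a zinc finger factor of neural precursors that leave the cycle and of neuroendocrine cells, read 443.2, 470.4 and 450.4 at 96 h against 24.2, 17.4 and 60.1 at 48 h. Its 96 h signals were almost equal in the 3 courses, and its log2 change was 3.33 (SE 0.24). SOX11, a transcription factor of newborn neurons, read 423.6, 361.8 and 427 at 96 h against 13, 21.5 and 74 at 48 h (log2 change 3.18, SE 0.24). The control read 15.3 at 96 h and 14.4 at 48 h for INSM1, and 11.4 and 7.4 for SOX11.

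The 15 genes with the largest rises had other neuronal genes among them. DCX, the doublecortin protein that binds microtubules in migrating neurons, read 848.6, 1661.9 and 1611.6 at 96 h against 86.4, 156.6 and 560.6 at 48 h (log2 change 2.62, SE 0.30). GRIA2, a subunit of the AMPA type of glutamate receptor, read 1243.7, 1874 and 1618.7 at 96 h against 115.4, 203.5 and 548.1 at 48 h (log2 change 2.63, SE 0.29). BDNF, a secreted neurotrophin, read 166.7, 218.7 and 151.8 at 96 h against 1.8, 7.6 and 25.9 at 48 h (log2 change 2.89, SE 0.26). Course 3 held the highest 48 h signal for each of these 3 genes, and no 48 h array reached any 96 h array. The control read 51.5 at 96 h and 27.9 at 48 h for DCX, 32.1 and 4.6 for GRIA2, and 22 and 1 for BDNF. The differences of DCX and BDNF from the control were called (adjusted p = 0.042 and 0.044). They were not called without the block (0.39 and 0.11), nor without course 1 or course 2. SEZ6L, a neuronal membrane protein, rose by 2.92 and BCL11B, a zinc finger factor of neurons and a BAF complex subunit, by 2.57. The nuclear receptor gene NR2F1 rose by 2.52, the DNA-binding protein gene SETBP1 by 2.63 and the adaptor gene SHD by 2.28. ERICH3 and SPAG6, a protein of the ciliary axoneme, rose by 2.82 and 2.63.

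Muscle genes stood among these rises too. The integrin gene ITGA7 read 1208.7, 917.7 and 861.8 at 96 h against 64, 71.8 and 167.8 at 48 h (log2 change 3.20, SE 0.26), and NEB, which encodes the thin-filament protein nebulin, rose by 2.69. The control read 43.6 at 96 h and 6.5 at 48 h for ITGA7. The difference of ITGA7 from the control was called (adjusted p = 0.037), but not without the block (0.15) or without course 1 or course 2. The list of skeletal muscle markers moved in both directions: of 20 tested members 6 rose and 4 fell, with a median of 0.03. Of all genes 10.8% rose and 13.5% fell. TNNI1, slow troponin I, rose by 1.56, while TTN, the giant sarcomere protein titin, fell by 1.35 on the log2 scale. Of 36 muscle markers 11 exceeded the array median on all 6 arrays and 17 on none. The following 4 were chosen after their values were seen. The myogenic factor MYOG read between 42.5 and 47.3 at 96 h and between 5.7 and 16.7 at 48 h, and the calcium pump gene ATP2A1 between 656.5 and 1397.9 at 96 h and between 219.7 and 420.8 at 48 h, and both rose. The myogenic factor MYOD1 read at most 4.3 at 96 h and 4 at 48 h, and creatine kinase CKM at most 1.8 and 5.2. The change of 13 of the 15 largest rises differed from that of the control, and of 12 with the control's 24 h array as its start, 8 without the course block, 9 each without course 1 or course 2, and 15 without course 3. Of all genes 3.24% moved further up than the control. The 15 were chosen by the same shOTX2 change that enters the difference, so a high count is partly built in. GRIA2 and NEB were not among the 13, with control changes of 1.22 and 1.02 (adjusted p of the difference 0.14 and 0.075, and 0.087 and 0.046 with the control's 24 h array).

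Neuronal cytoskeleton and growth cone genes rose in a larger share than all genes. Of 45 tested members 17 rose, against 10.8% of all genes, and 8 fell, against 13.5%, with a median log2 change of 0.23, against -0.03 for all genes. The list median in the control course was 0.12. The median difference between the arms was 0.0002, and 0.16 with the control's 24 h array as its start. The falls were fewer in other settings: 3 without the course block, and 4, 3 and 5 without courses 1, 2 and 3. MAP2, a microtubule-associated protein of dendrites, read 78.1, 71.9 and 82.3 at 96 h against 8.6, 2.8 and 20.5 at 48 h, with a mean of 7.47 at 0 h. It rose by 1.86 (SE 0.26) with a change of 0.13 from 0 to 48 h, which was not called (adjusted p = 0.73). The reticulon gene RTN1 rose by 1.71. TUBB3, a neuronal beta-tubulin, read 3121.7, 1899.5 and 1765.6 at 96 h against 1770.8, 940.5 and 1418.2 at 48 h, and these ranges overlap. TUBB3 rose by 0.71 within courses (adjusted p = 0.00027, and 0.18 without the block). The endosomal gene NSG1 fell by 0.97. The change differed from the control for 15 members of this list, 11 further up and 4 further down, and for 7 and 1 with the control's 24 h array as its start. Of all genes 3.24% moved further up and 5.78% further down.

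Proneural and early neurogenic factors shared this direction. Of 28 tested members 11 rose and 1 fell (7 and 0 without the course block), with a median of 0.45, against 0.09 in the control course. The shares of all genes that rose and fell were 10.8% and 13.5%. Beside INSM1 and SOX11, the RNA-binding protein gene ELAVL3 read 80.8, 93.3 and 80.7 at 96 h against 9.5, 0.8 and 18.2 at 48 h (log2 change 2.04). NHLH1, a helix-loop-helix factor of newborn neurons, rose by 1.61. In both cases the 3 arrays at 96 h lay above the 3 at 48 h. MYCN, the MYC relative of neural precursors, read 89.4, 125.4 and 116.1 at 96 h against 24.7, 31.3 and 61.5 at 48 h (log2 change 1.24, adjusted p = 0.0013). The difference from the control was not called for ELAVL3, NHLH1 and MYCN (adjusted p = 0.058, 0.11 and 0.36). It was called for INSM1 and SOX11 (adjusted p = 0.00041 and 0.00095). MYC read 2869.3, 3103.9 and 3217.4 at 96 h against 4071.6, 2760.6 and 3192.5 at 48 h, and its change of -0.11 was not called (adjusted p = 0.5).

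Adhesion and guidance genes rose next to the cytoskeletal ones, with counts to be read against 10.8% of all genes that rose and 13.5% that fell. Of 38 neuronal adhesion genes 11 rose and 4 fell, with 7 rises without course 2 and 1, 1 and 2 falls without the block, course 1 and course 2. L1CAM, an adhesion molecule of growing axons, read 248.2, 241 and 159.9 at 96 h against 30.8, 21.5 and 61.8 at 48 h (log2 change 2.15, SE 0.25). The cadherin gene CDH18 rose by 1.91, the L1 family gene NRCAM by 1.19 and the axonal adhesion gene CNTN2 by 1.88. CNTN2 had already changed by 4.67 from 0 to 48 h, and it read 2112.4, 2346.3 and 1915.9 at 96 h against 606.2, 327.3 and 903.2 at 48 h. The control read 43.6 at 96 h and 11.2 at 48 h for CNTN2, and the difference of 0.74 between the arms was not called (adjusted p = 0.39). The difference was called for L1CAM, CDH18 and NRCAM (adjusted p = 0.015, 0.017 and 0.018). With the control's 24 h array as its start it was called for CDH18 alone (adjusted p = 0.087, 0.033 and 0.062). CNTN1, another contactin, fell by 0.84. Of 48 axon guidance and migration genes 12 rose and 5 fell (7 rises without the block and 4 without course 1, and 3 falls without course 2). The semaphorin gene SEMA6A rose by 2.16, the chemokine receptor gene CXCR4 by 1.44 and the guidance ligand gene SLIT2 by 1.02. The difference of CXCR4 from the control was not called (0.95, adjusted p = 0.26). Those of SEMA6A and SLIT2 were (adjusted p = 0.008 and 0.00565, and 0.016 and 0.072 with the control's 24 h array). RELN, a secreted protein of migrating layers, fell by 0.84 and the semaphorin gene SEMA3F by 0.82.

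Synaptic and membrane genes moved in both directions, with counts to be read against 10.8% of all genes that rose and 13.5% that fell. Of 47 synaptic vesicle and active zone genes 8 rose and 8 fell, with a median of -0.18 (5 rises without course 2, and 5 and 4 falls without the block and without course 1). SYT4, a synaptotagmin of vesicles, read 143, 183.2 and 174.5 at 96 h against 14.7, 32.4 and 27.8 at 48 h (log2 change 2.18, SE 0.21), and SYT11 rose by 1.43. SNAP25, a SNARE protein of vesicle fusion, read 72.3, 61.9 and 75.9 at 96 h against 23.7, 30.4 and 40.3 at 48 h (log2 change 0.87). The calcium sensor gene SYT1, which read 2161.2 to 2369.9 at 96 h and 2733.1 to 2994.4 at 48 h, fell by 0.34, and the synapsin gene SYN2 fell by 0.84. Of 26 transmitter receptor genes 3 rose and 1 fell. Beside GRIA2, the GABA-B receptor gene GABBR2 rose by 2.08 and the NMDA receptor gene GRIN2D by 1.21, while the GABA-A receptor gene GABRA2 fell by 0.82 (adjusted p = 0.13 without the block). Of 23 postsynaptic scaffold genes 3 rose and 2 fell (1 rise and 1 fall without the block). The shares of receptor and scaffold genes that rose are near that of all genes.

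Ion channels and secretory genes showed rises of single members, and the potassium channel counts are near the shares of all genes (10.8% rose, 13.5% fell). Of 35 potassium channel genes 5 rose and 4 fell, with a median of 0.00 (1 fall each without course 1 and course 2). KCNC1, a fast delayed rectifier, read 759.7, 584.6 and 550 at 96 h against 187.4, 189.1 and 312.5 at 48 h (log2 change 1.42), and KCNMB4, a beta subunit of the BK channel, rose by 1.44. Of 17 voltage-gated sodium and calcium channel genes 5 rose and 3 fell, with 2 to 5 rises and 1 to 3 falls when a single course was left out. The sodium channel gene SCN3A rose by 1.52, although its probe sets differed in sign, and CACNA2D2 rose by 1.44. Of 24 neuropeptide and secretory granule genes 8 rose and 4 fell (4 rises each without course 1 and course 2, 5 with a stricter filter). The granins CHGB and SCG3 rose by 1.21 and 1.15. SSTR2, a somatostatin receptor, read 2607.3, 1641.2 and 1808.6 at 96 h against 898, 619.9 and 976 at 48 h (log2 change 1.26), on top of a change of 4.36 from 0 to 48 h. The difference from the control was not called for KCNC1, SCN3A, CACNA2D2, CHGB and SCG3 (adjusted p = 0.16, 0.11, 0.49, 0.20 and 0.59). It was called for KCNMB4 and SSTR2 (adjusted p = 0.00058 and 0.036).

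**Figure D2:**
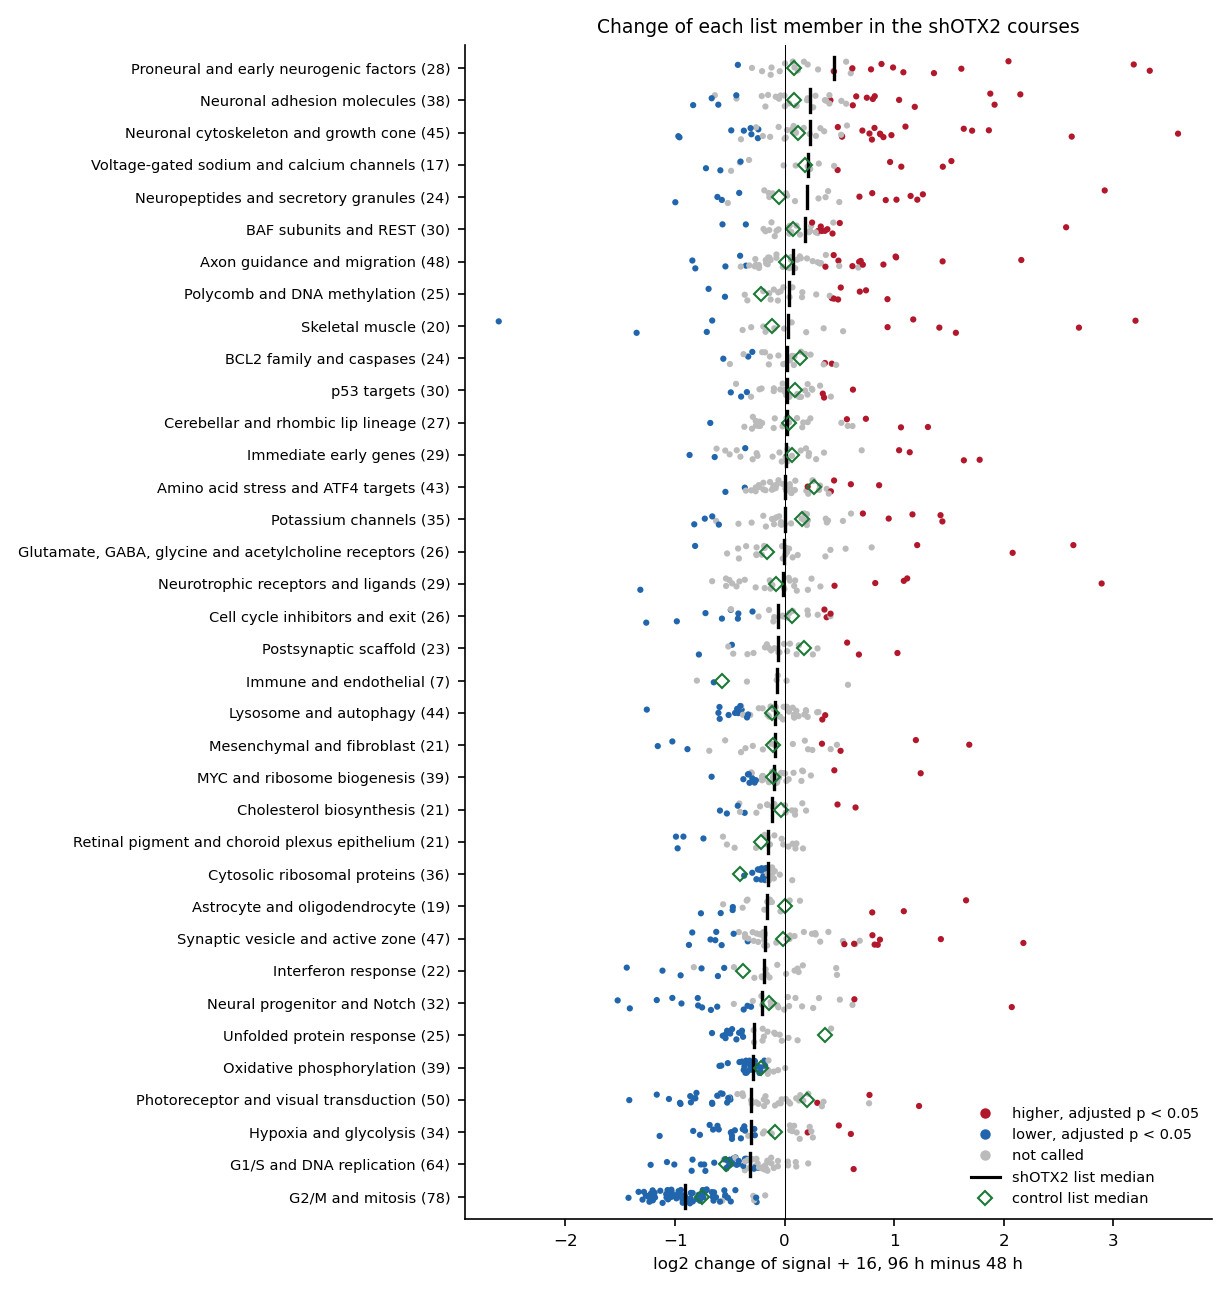
Log2 change of signal + 16 from 48 to 96 h in the shOTX2 courses for each tested member of 36 gene lists (number of tested members in brackets), red where higher and blue where lower at an adjusted p under 0.05. The black bar is the list median and the green diamond the list median in the control course; the G2/M list lies lowest in both, at -0.91 and -0.75.

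Mitotic genes fell almost throughout, and their median change was negative in the control course as well. Among 78 tested members of the mitotic list, 74 fell and 0 rose, against 13.5% and 10.8% of all genes, and 78 of 78 had a negative change. The median log2 change was -0.91 in the shOTX2 courses and -0.75 in the control course, where 75 of 78 were negative. The median difference between the arms was -0.10, and -0.45 with the control's 24 h array as its start. CENPE, a kinesin that links kinetochores to microtubules, read 65.9, 56.1 and 82 at 96 h against 155.9, 268.6 and 213 at 48 h (log2 change -1.43, SE 0.14), and the control read 211.4 at 96 h against 368.5 at 48 h. ASPM, a spindle pole protein, read 158.6, 177.5 and 229 at 96 h against 425.6, 595 and 474.4 at 48 h (log2 change -1.33). The mitotic kinesin gene KIF2C fell by 1.30 and the centrosomal kinase gene NEK2 by 1.28. The proliferation marker MKI67 fell by 0.76 and the cyclin-dependent kinase gene CDK1 by 0.84, next to a control change of -0.69 for CDK1. The change differed from the control for 3 of the 78 members (5 with the control's 24 h array), each further down. This count is near the share of all genes that moved further down, 5.78%, and the 3 are named here after their values were seen. The checkpoint gene MAD2L1 fell by 0.87, the kinetochore gene NDC80 by 1.03 and the topoisomerase gene TOP2A by 1.24, with control changes of 0.22, 0.21 and -0.45.

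The list had also fallen in the interval before, with a median of -1.21 and 76 of 78 members called from 0 to 48 h. The levels reached at 96 h were therefore lower in the hairpin cells than in the control: the signals of all tested members summed to between 11790 and 16460 on the 96 h arrays and between 23940 and 28500 on the 48 h arrays, against 32810 in the control at 96 h and 54140 at 48 h. On a per-gene basis the same holds for CENPE and ASPM. In RNA from a whole culture, fewer cells in a state and less RNA per cell in that state cannot be told apart.

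The promoters of the mitotic genes with the largest falls are shown because this list moved as a block. RefSeq promoters (GRCh38.p14, 250 bases before to 50 after the start) were available for 67 of the 78 members, and they were searched on both strands for the CCAAT box, for the CHR letters TTTGAA, for TAATCC, the core of sites bound by OTX2 and CRX, and for the E-box CAGCTG. The promoter of ASPM, at chr1:197146620-197146919 on the minus strand, holds 4 matches to CCAAT (read as ATTGG on the shown strand) and 1 to TTTGAA (read as TTCAAA), all in capitals:
ASPM: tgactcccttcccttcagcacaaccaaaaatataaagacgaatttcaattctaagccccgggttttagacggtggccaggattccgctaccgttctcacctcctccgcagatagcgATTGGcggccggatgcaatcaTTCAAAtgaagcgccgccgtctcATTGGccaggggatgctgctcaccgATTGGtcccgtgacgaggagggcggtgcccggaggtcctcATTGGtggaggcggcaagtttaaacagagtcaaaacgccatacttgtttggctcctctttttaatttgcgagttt
CENPE: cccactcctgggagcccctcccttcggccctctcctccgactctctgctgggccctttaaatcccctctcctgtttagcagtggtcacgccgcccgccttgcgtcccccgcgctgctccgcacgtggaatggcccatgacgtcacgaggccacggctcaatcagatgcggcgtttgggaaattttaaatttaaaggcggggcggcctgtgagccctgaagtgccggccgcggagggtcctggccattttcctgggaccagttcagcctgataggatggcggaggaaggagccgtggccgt
The promoter of CENPE, at chr4:103198294-103198593 on the minus strand, holds none of the 4 motifs in this window, although CENPE had the largest fall of the list. Across the list, CCAAT was found in 48 of 67 promoters (71.6%) and TTTGAA in 44 (65.7%), against 36.7% and 10.3% of the 11178 tested genes with a promoter and 35.7% and 15.4% of all 27305 promoters. TAATCC was found in 4.5% of the list and in 4.6% of the tested genes, and CAGCTG in 13.4% and 17.3%. Among the 15 largest rises, 10 had a promoter in the table, of which 5 held CCAAT (50.0%), 1 TTTGAA, 1 CAGCTG and 0 TAATCC. Those of BDNF and ERICH3, 2 of these 10, held none of the 4 motifs. The motifs of STMN2, the largest rise, are not given separately here. A match is a description of the letters, not a binding site.

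Replication genes fell less in this interval than before it. Among 64 tested replication and G1/S genes, 29 fell and 1 rose, with a median of -0.32, while 60 of 64 fell from 0 to 48 h with a median of -1.27. Among all genes 13.5% fell and 10.8% rose in this interval, and 22.6% fell from 0 to 48 h. The 29 became 11 without the course block, 10 without course 1 and 11 without course 2. CDT1, which licenses replication origins, read 132.3, 183.7 and 215.3 at 96 h against 418.5, 471 and 396.1 at 48 h (log2 change -1.22). RRM2, a subunit of ribonucleotide reductase, fell by 1.07 and the repressor E2F8 by 1.01. The list median in the control course was -0.53. The median difference between the arms was 0.21, and 0.02 with the control's 24 h array as its start, with 3 and 0 members called further up. The count of 3 is near the share of all genes that moved further up, 3.24%. The member that rose was CCNE2, a cyclin of the G1/S transition, with a log2 change of 0.63 (adjusted p = 0.013, and 0.17 and 0.068 without courses 1 and 2).

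Cell cycle inhibitors moved in both directions. Of 26 tested members 3 rose and 8 fell (1 and 5 without the block and also without course 1 or course 2), with a median of -0.06. Of all genes 10.8% rose and 13.5% fell, so the share of inhibitors that rose is near that of all genes. CDKN1A, which encodes p21, had changed by 2.34 from 0 to 48 h and read 553.3, 189 and 121.7 at 96 h against 331.6, 211.6 and 181.3 at 48 h. Its courses moved in different directions, and its change of 0.01 was not called. CDKN1B, which encodes p27, read 724.4, 709.4 and 717.5 at 96 h against 749.3, 661.5 and 772.6 at 48 h (log2 change -0.02, not called). The antiproliferative gene TOB1 fell by 0.57 (adjusted p = 0.063 without the block), the cyclin G1 gene CCNG1 by 0.49 and the cytoskeletal linker gene GAS2L3 by 1.26.

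**Figure D3:**
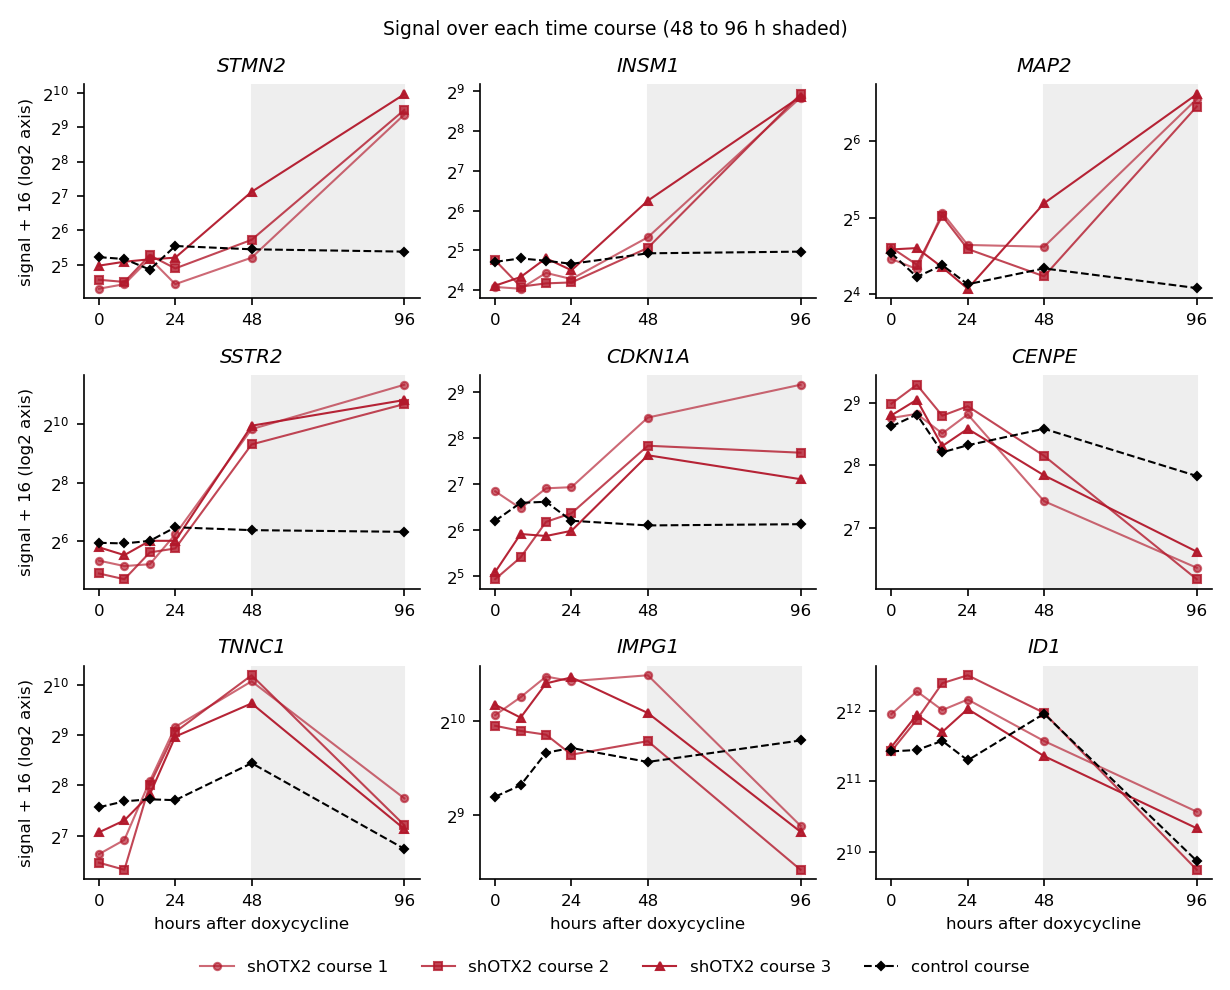
MAS5 signal plus 16 (log2 axis) over 0, 8, 16, 24, 48 and 96 h after doxycycline for 9 genes, with the 3 shOTX2 courses in red and the single control course dashed in black; the interval from 48 to 96 h is shaded. STMN2, INSM1 and MAP2 climb steeply in the shaded interval in the red lines alone, whereas ID1 drops in the red lines and in the black line.

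The largest fall was that of TNNC1, the slow and cardiac troponin C. TNNC1 read 198.2, 131.9 and 124.2 at 96 h against 1063.8, 1157.6 and 779.6 at 48 h, with a mean of 91 at 0 h. Its log2 change of -2.61 (SE 0.20, adjusted p = 1e-07) thus undid most of a change of 3.25 in the interval before. The control read 90.6 at 96 h against 332.3 at 48 h, a change of -1.71, and the difference of -0.90 between the arms was not called (adjusted p = 0.17). It was called with the control's 24 h array as its start (-1.64, adjusted p = 0.024) and without course 3 (adjusted p = 0.046). NANOS1, a translational repressor, read 851.2, 795.4 and 789.2 at 96 h against 2937.3, 2400.4 and 1901.1 at 48 h (log2 change -1.53, SE 0.12), while the control read 606.4 at 96 h and 289.8 at 48 h. The change of NANOS1 lay 2.56 below that of the control (adjusted p = 3.1e-06), and 1.76 below it with the control's 24 h array as its start.

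Inhibitors of helix-loop-helix factors fell with them. ID1 and ID3 bind and block the partners of proneural factors. ID1 read 1505.6, 845 and 1277 at 96 h against 3026, 3993.2 and 2607.6 at 48 h (log2 change -1.41, SE 0.18), and the control read 923.1 at 96 h against 3958.6 at 48 h. ID3 read 326.1, 94.9 and 137.1 at 96 h against 426.7, 713.3 and 412.1 at 48 h (log2 change -1.52), and the control 133.7 against 687.6. Neither had changed by more than 0.24 in size from 0 to 48 h, and neither difference from the control was called (adjusted p = 0.29 and 0.44), although without course 2 both were (adjusted p = 0.002 and 0.039). Of 32 neural progenitor and Notch genes 13 fell and 2 rose (6 falls without the block, 7 without course 2), with a median of -0.21, against -0.15 in the control. The shares of all genes that fell and rose were 13.5% and 10.8%. The intermediate filament gene VIM fell by 1.03 and PROM1, a membrane protein of progenitors and photoreceptors, by 1.17. NES, the progenitor filament nestin, fell by 0.79 (adjusted p = 0.0093, 0.1 without the block, and 0.13 and 0.084 without courses 1 and 2). MFNG, a glycosyltransferase that modifies Notch, rose by 2.07.

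The other genes among the 15 largest falls were of mixed function. The regulator of G protein signalling RGS20 fell by 1.52, the collagen gene COL11A1 by 1.46, the interferon-induced membrane protein gene IFITM3 by 1.44 and the peroxidase gene GPX3 by 1.43. TXNDC11 fell by 1.43, the GTPase gene RAB31 and the secreted protease-inhibitor-like gene WFDC1 by 1.41, and the adaptor gene SLA by 1.38. GGT5, a gamma-glutamyl transferase, fell by 1.38 (adjusted p = 0.0029, and 0.058 without course 2). The change of 5 of these 15 falls differed from the control, and of 7 with the control's 24 h array as its start, 2 without the block, and 4, 6 and 7 without courses 1, 2 and 3. Of all genes 5.78% moved further down than the control, and these 15 too were chosen by a change that enters the difference. The control moved the same way on average: the 106 genes that fell at least 2-fold had a median control change of -0.57, whereas the 198 that rose at least 2-fold had one of 0.15.

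**Figure D4:**
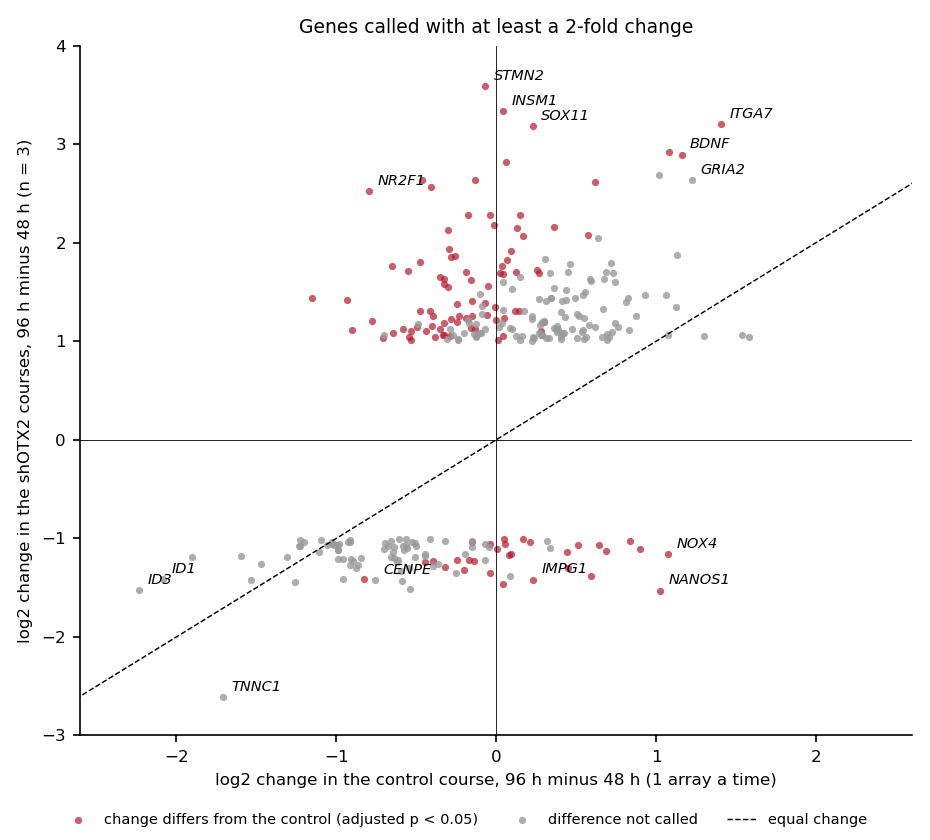
Log2 change from 48 to 96 h in the shOTX2 courses (vertical axis, mean of 3) against that in the control course (horizontal axis, 1 array a time) for the 304 genes called with at least a 2-fold change, red where the difference between the arms was called. The 198 rises have a median control change of 0.15, and ID1, ID3 and TNNC1 lie among the points that fell in both arms.

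Photoreceptor genes fell against the direction of the control course. Of 50 photoreceptor and visual transduction genes 19 fell and 3 rose (12 falls without course 1; 1 rise without the block and without course 1), with a median of -0.30, against 0.20 in the control. IMPG1, a proteoglycan of the matrix around photoreceptors, read 455.8, 324.5 and 435.2 at 96 h against 1422.8, 867.1 and 1071.7 at 48 h (log2 change -1.42, SE 0.11). The control read 871.5 at 96 h and 741 at 48 h, and the difference was called (adjusted p = 0.00024, and 0.061 without the block). Its mean at 0 h was 1056.4, and its change from 0 to 48 h was 0.06. NXNL1, a thioredoxin-like protein of rods, fell by 1.06. The change differed from the control for 13 members, 1 further up and 12 further down, and for 0 and 5 with the control's 24 h array as its start. The shares of all genes were 10.8% that rose and 13.5% that fell. Against the control from its 48 h array they were 3.24% further up and 5.78% further down.

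The factors known to activate these genes gave mixed values. CRX read 379.8, 371.2 and 316.2 at 96 h against 568.5, 403.2 and 376.8 at 48 h, and its change of -0.31 was not called (adjusted p = 0.16). On its second probe set, which read at most 51.2, the change was -0.89 (adjusted p = 0.023 over all probe sets). The control read 274.2 at 96 h and 132.4 at 48 h, and the difference of -1.27 between the arms was called (adjusted p = 0.012). It was not called without the block (0.12), without course 1 (0.058) or with the control's 24 h array (0.075). NRL, the rod factor, read 648, 387.8 and 379.6 at 96 h against 326.3, 220.5 and 246.2 at 48 h (log2 change 0.77, adjusted p = 0.02, but 0.153 without the block and 0.155 without course 1). PRDM1, a repressor that steers retinal precursors to the photoreceptor fate, rose by 1.23. Of 21 markers of retinal pigment and choroid plexus epithelium 4 fell and 0 rose (2 without the block), against 13.5% and 10.8% of all genes. Of the 29 markers of that list 10 exceeded the array median on all 6 arrays and 13 on none. SERPINF1, which encodes a secreted factor of pigment epithelium and was chosen after its values were seen, read between 1023.1 and 1190.6 at 96 h and between 1659.2 and 2336.3 at 48 h, while the defining genes RPE65 and TTR read at most 8.6 and 9.3 at 96 h and 15.5 and 4 at 48 h.

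Genes of protein folding in the endoplasmic reticulum fell in the hairpin cells, whereas their median change in the control course was positive. Of 25 genes of the unfolded protein response 12 fell and 0 rose (5 falls without the course block), with a median of -0.28, against 0.37 in the control. Among all genes 13.5% fell and 10.8% rose. HSPA5, the main chaperone of the compartment, read 2431.9, 2250.4 and 2486.8 at 96 h against 3586.6, 3633.3 and 3227.9 at 48 h (log2 change -0.54, SE 0.08). The control read 4516.6 at 96 h and 3491.7 at 48 h, and the difference was called (adjusted p = 0.0019). HSP90B1, the HSP90 form of this compartment, fell by 0.56, with a control change of 0.56. The change of 13 members differed from the control, 12 further down and 1 further up, and of 8 further down with the control's 24 h array as its start. From the control's 48 h array 5.78% of all genes moved further down and 3.24% further up. Of 43 amino acid stress and ATF4 target genes 5 rose and 2 fell, with 0 to 9 rises when a single course was left out. The share that rose is near that of all genes, 10.8%.

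Energy metabolism fell by small amounts, with counts to be read against 10.8% of all genes that rose and 13.5% that fell. Without the block 745 of all 13903 genes rose and 898 fell. Of 39 oxidative phosphorylation genes 31 fell and 0 rose (17 without the block, 12 without course 2), with a median of -0.29, against -0.21 in the control, and 38 of 39 were negative. NDUFA1, a subunit of complex I, read 1946.7, 1554.3 and 1618.5 at 96 h against 2520.2, 2689.1 and 2426.1 at 48 h (log2 change -0.58, SE 0.07), and the ATP synthase subunit gene ATP5MC1 fell by 0.52. Of 34 hypoxia and glycolysis genes 18 fell and 3 rose (11 falls without the block, course 1 or course 2). The carbonic anhydrase gene CA12 fell by 1.14 with a control change of 0.44, and EPAS1, which encodes the hypoxia factor HIF-2 alpha, fell by 0.83. Of 36 cytosolic ribosomal protein genes 14 fell and 0 rose, but only 2 without the block and 4, 2 and 6 without courses 1, 2 and 3. Their median was -0.15 (-0.03 after quantile normalization), against -0.41 in the control. The median difference between the arms was 0.24 and turned to -0.09 with the control's 24 h array as its start, with 4 and 0 members called further up. From the control's 48 h array 3.24% of all genes moved further up.

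Chromatin genes moved by smaller steps, with counts to be read against 10.8% of all genes that rose and 13.5% that fell. Of 30 genes of BAF subunits and REST 9 rose and 2 fell, with 2 rises without the block, course 1 or course 2, and BCL11B was the largest of them. Of 25 Polycomb and DNA methylation genes 7 rose and 2 fell (4 rises in each of those 3 settings). CBX2, a Polycomb subunit, read 596.8, 433.3 and 362.4 at 96 h against 231, 206.8 and 253.3 at 48 h (log2 change 0.94), and the methylcytosine oxidase gene TET2 rose by 0.74.

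Some genes changed little before 48 h and were called after it. The limit used here does not require the later change to be the larger. With a size under 0.5 in the log2 change from 0 to 48 h, 797 genes rose and 1096 fell from 48 to 96 h, and 63 and 20 of these changed at least 2-fold. Of these 797 and 1096 genes, 241 and 459 had also been called from 0 to 48 h, so a small earlier change is not the absence of one. BCL11B read 91.5, 175.8 and 137.4 at 96 h against 0.4, 9.9 and 19.7 at 48 h, with a mean of 6.57 at 0 h. SVIL, which encodes the actin-binding protein supervillin, rose by 2.28 after a change of 0.18, and SPATA8 by 1.80 after a change of -0.09. With MAP2, SYT4 and CDH18 these were the largest rises by this limit. The largest falls by it were those of ID3, TXNDC11, IMPG1, ID1, the calcium-binding protein gene S100A16 (-1.29) and SEL1L3 (-1.22, with probe sets that differed in sign).

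Other genes went on or turned round. From 0 to 48 h and again from 48 to 96 h, 742 genes rose in both intervals and 821 fell in both. Another 176 fell first and rose later, and 416 rose first and fell later. The 2 intervals share the 48 h arrays, so an array that reads high at 48 h moves the 2 changes in opposite directions. PEG10, a retrotransposon-derived gene, read 1976, 1708.1 and 1855.2 at 96 h against 1132.5, 883.7 and 1030.9 at 48 h and a mean of 1849.1 at 0 h, with 24 h signals averaging 1604.5. NECAB2, a neuronal calcium-binding protein, read 62.9, 51.2 and 49.6 at 96 h against 3.5, 5.1 and 15.4 at 48 h, and its mean at 0 h was 76.4. In the other direction CD52 fell by 1.22 (adjusted p = 0.073 without course 2) after a change of 1.41, and TTN by 1.35 after a change of 1.29. USP18, an interferon-stimulated protease, had changed by 4.91 from 0 to 48 h and read 1484.2, 960.2 and 1069.1 at 96 h against 1999.9, 2265.4 and 1920.6 at 48 h. Its arrays did not overlap, but its change of -0.83 was not called (adjusted p = 0.08). Of 22 interferon response genes 6 fell and 0 rose (3 without the block and without course 2), against 13.5% and 10.8% of all genes.

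The courses did not stand at the same point at 48 h. Course 3 had the highest 48 h signal for 15 of the 15 largest rises and the smallest change for 172 of the 198 genes that rose at least 2-fold. The median change of these 198 genes was 1.49 in course 1, 1.54 in course 2 and 0.92 in course 3. Of the 106 genes that fell at least 2-fold, 80 had the smallest change in course 3, with medians of -1.20, -1.43 and -0.91 in courses 1, 2 and 3. At 96 h the signals of INSM1 and SOX11 were close together in the 3 courses, but those of other large rises were not. DCX read 848.6, 1661.9 and 1611.6 at 96 h in courses 1, 2 and 3, and L1CAM 248.2, 241 and 159.9. Course 3 also lay lower on the first principal component at 96 h, at 64.8 against 71.6 and 71.9. The actin ratio of 3' to 5' signal, a measure of RNA integrity, was 1.31 at 96 h and 1.35 at 48 h in course 1, 1.82 and 2.20 in course 2, and 1.90 and 2.02 in course 3. Its part in the course differences was not tested.

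Markers of other cell types were low or mixed. Of 19 immune and endothelial markers 2 exceeded the array median on all 6 arrays and 12 on none, with PTPRC at most 12.9 at 96 h and 10.9 at 48 h and CDH5 at most 15.2 and 11.4. The 2 were FLT1, at most 68.9 at 96 h and 113.9 at 48 h, and PECAM1, at most 25.9 and 31.5. Of 26 astrocyte and oligodendrocyte markers 7 exceeded the array median on all 6 arrays and 9 on none, and GFAP read at most 5.6 at 96 h and 4.5 at 48 h. The 7 were SLC1A2, SLC1A3, CLU, OLIG2, MBP, CNP and UGT8. SLC1A2 read between 237.1 and 279 at 96 h and between 330 and 405.3 at 48 h. OLIG2 rose by 0.80 (adjusted p = 0.061 without the block). OLIG1, a factor of the oligodendrocyte lineage and of neural precursors, read 56.1, 108.1 and 112 at 96 h against 17.1, 7.2 and 31.8 at 48 h (log2 change 1.65). Of 29 mesenchymal markers 14 exceeded the median on all 6 arrays and 8 on none, with VIM, COL1A1, ZEB1, ZEB2 and the matrix protein SPARC among the 14. The summed signal of the tested mesenchymal markers ran from 8130 to 10220 at 96 h and from 9504 to 10220 at 48 h, that of the astrocyte and oligodendrocyte list from 1226 to 1241 and from 1192 to 1378, and that of the immune and endothelial list from 136 to 184.6 and from 174.5 to 272.7. For the muscle list it ran from 4526 to 5708 at 96 h and from 3091 to 3522 at 48 h. The part of other cells in the changes above was not tested.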

How the data were processed

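RNA of D425 cells was measured on Affymetrix U133 Plus 2.0 arrays, per the labels: 3 shOTX2 courses and 1 control course at 6 times. The deposited signals are linear intensity values from MAS5 and GCOS, per the submitters' processing notes, which name no versions. In the deposited intensity the mean after trimming 2% at each end lay between 100.011 and 100.014 on each array, so scaling acted on whole arrays and a shift shared by most genes is not visible. Of 54675 probe sets, 41097 had 1 gene symbol, 1801 several and 11777 were unnamed here. For 41043 probe sets the symbol was brought up to date through Entrez IDs in RefSeq (GRCh38.p14). The 62 control probe sets were left out.

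Probe sets above the array median in at least 3 arrays were kept, and the brightest represented its gene (13903 genes). Values were taken as log2(signal + 16) and fitted with limma 3.58.1 in R 4.3.3 on the 12 groups with the course as a block (10 residual degrees of freedom), eBayes with a trend and Benjamini-Hochberg adjustment. The control course is its own block. The steps were tested on simulated data.

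The course number pairs the arrays, as the labels name separate independent courses. Residuals from the group means correlated in all 45 same-course pairs (r from 0.157 to 0.556) and had a median of -0.284 between courses.

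Named genes are OTX2, the 15 largest rises and falls with 1 sign in all courses, up to 4 members a list (2 more in the opposite direction), 6 late-onset genes and 5 turning genes each way, 5 differences from the control each way, and fixed names. Exceptions are stated. The members, the 36 lists and the names were chosen with earlier results of these data known. No array copied another (at most 1.2% equal values). Alternatives changed the block, pseudocount, filter, scaling, probe set rule, trend, courses and control array.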

Additional observations from a re-analysis of the deposited data

Results flagged for a closer look

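The change from 48 to 96 h differed between the shOTX2 and control courses for 1254 genes, by the test of that difference in limma. The 5 largest differences upward were those of STMN2 (3.66 on the log2 scale), NR2F1 (3.32), INSM1 (3.29), SPAG6 (3.1) and BCL11B (2.98), and the differences of these 5 genes were also called with the control's 24 h array as its start (2.50 to 3.75), without the course block and without any single course. The 5 largest downward were those of SGIP1 (-2.7), NANOS1 (-2.56), AKAP5 (-2.55), PARD6B (-2.23) and NOX4 (-2.23).

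For AKAP5, SGIP1, PARD6B and NANOS1 the control signal at 48 h was the lowest of that course. AKAP5 read 54.8, 30.8, 33.3, 37.4, 3.7 and 82.9 in the control at 0, 8, 16, 24, 48 and 96 h, and PARD6B 865.9, 723.4, 904.2, 844.4, 368.3 and 1197.1. SGIP1 read 8.2, 14.9, 35, 25.4, 5.1 and 89.1 and NANOS1 480.7, 480.4, 446, 515.7, 289.8 and 606.4. NOX4, an oxidase that makes hydrogen peroxide, read 130.7, 148.5, 220.2, 240.2, 138.1 and 308.2. With the control's 24 h array as its start the differences were -1.12 for AKAP5 (adjusted p = 0.12), -1.73 for SGIP1 (adjusted p = 0.12), -1.07 for PARD6B (adjusted p = 0.041), -1.50 for NOX4 (adjusted p = 0.0029) and -1.76 for NANOS1 (adjusted p = 0.001). The difference of SGIP1 was also not called without course 1 (adjusted p = 0.063). In the shOTX2 courses themselves AKAP5 and SGIP1 were not called (log2 changes of -0.23 and -0.38), while PARD6B, a cell polarity protein, fell by 0.57 (adjusted p = 0.007, but 0.053 without the block, 0.12 without course 1 and 0.22 with the mean of its kept probe sets) and NOX4 by 1.16. The part of the control 48 h array in these differences was otherwise not tested.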

How the results depend on the processing

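At 96 h against 48 h the 3373 calls (1495 higher, 1878 lower) became 1643 (745 and 898) without the course pairing as a block, 5382 (2561 and 2821) with every named probe set, which tests more features, and 1622 to 2943 (669 to 1302 and 947 to 1641) with a single course left out. The 1254 differences from the control (451 higher, 803 lower) became 289 (88 and 201) without the block, 816 with the mean of the kept probe sets (480 lower), 815 without the trend (509 lower), 824 from only the arrays compared (285 higher), and 621 to 1333 (163 to 500 and 458 to 833) with a single course left out. Every named probe set gave 705 higher, and centring on the median 240 higher (18.7% of calls, against 36.0%). The control's 24 h array gave 640 (227 and 413). From 0 to 48 h the 6197 calls (3052 and 3145) became 11073 (5757 and 5316) with every named probe set, and centring moved the share higher to 35.8% from 49.2%. Centring moved the median of all genes by over 0.1 for the last 2 comparisons, to -0.08 and -0.09. Other alternatives kept these counts within 1.5 times. The cause was not tested. Of 201 named genes called, 120 were called under all alternatives, and 55 were not called without the block. The change of CYCS, which was -0.30, became 0.0825 with the mean of its probe sets, which differ in sign. The probe sets of 16 named genes differed in sign. Signals below the array median leave dim genes without a reliable change.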
